A study of Saccharomyces cerevisiae with 8 samples.

Results

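NRD1 (YNL251C), NAB3 (YPL190C) and SEN1 (YLR430W) encode the proteins of the Nrd1-Nab3-Sen1 termination complex of Saccharomyces cerevisiae. They were found by systematic name in the table of read counts, where 3 of 7711 rows carried one of these names, 1 row for each gene. RNA was measured in 8 libraries of cells grown in YPAD, 2 biological replicates in each of 4 groups. The anchor-away strain Y3284 carries NAB2-FRB::HIS. In this system rapamycin joins the FRB tag to FKBP12 on an anchor, here the ribosomal protein fusion RPL13A-2xFKBP12::LoxP-TRP1-LoxP, so that the tagged nuclear protein leaves the nucleus with the anchor. Y3284 was sampled after 15 min and 30 min of rapamycin at 1 µg/ml and without rapamycin (0 min). The control strain Y2615 has no NAB2-FRB tag and was sampled after 30 min of the same treatment. Both strains also carry tor1-1 and fpr1::loxPLEU2-LoxP, which make the cells resistant to rapamycin itself. The 4 libraries of Y3284 taken after rapamycin are called anchored below. The other 4, from untreated Y3284 and from the control, are called unanchored.

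Nrd1 and Nab3 are RNA-binding proteins that recognise short sequences in nascent RNA, and Nrd1 also contacts the tail of RNA polymerase II early in a gene. Sen1 is a helicase that dislodges the polymerase, so that the complex ends transcription of snoRNAs and of cryptic unstable transcripts (CUTs), and the RNA is then passed to the TRAMP complex and the nuclear exosome. The complex also ends a share of transcripts of some protein genes early, and NRD1 itself is known as one of them. Nab2, the protein that was anchored, binds poly(A) tails of nuclear RNA.

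The windows around the first codon of the 3 genes are shown because the complex reads its RNA targets through short motifs and is known to act near the start of NRD1. Each line gives 250 bases before the first coding base and 50 bases from it, 5′ to 3′ on the coding strand, from the RefSeq genome of build R64. NRD1 is at chrXIV:174266-174565 (minus strand), NAB3 at chrXVI:187676-187975 (minus strand) and SEN1 at chrXII:993184-993483 (plus strand). Capitals mark the Nrd1 motifs GTAA and GTAG and the Nab3 motif TCTT, written as DNA.
NRD1: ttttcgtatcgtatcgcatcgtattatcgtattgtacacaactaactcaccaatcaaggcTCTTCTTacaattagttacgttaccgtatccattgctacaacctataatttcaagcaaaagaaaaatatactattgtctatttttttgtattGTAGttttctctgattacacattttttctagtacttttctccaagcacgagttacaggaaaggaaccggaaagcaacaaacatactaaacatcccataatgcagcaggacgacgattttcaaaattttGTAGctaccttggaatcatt
NAB3: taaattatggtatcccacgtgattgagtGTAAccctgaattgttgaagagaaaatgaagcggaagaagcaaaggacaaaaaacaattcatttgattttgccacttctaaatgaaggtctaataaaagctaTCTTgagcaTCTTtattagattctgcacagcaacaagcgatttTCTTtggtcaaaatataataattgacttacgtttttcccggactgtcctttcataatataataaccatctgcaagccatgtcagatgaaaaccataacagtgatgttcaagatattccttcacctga
SEN1: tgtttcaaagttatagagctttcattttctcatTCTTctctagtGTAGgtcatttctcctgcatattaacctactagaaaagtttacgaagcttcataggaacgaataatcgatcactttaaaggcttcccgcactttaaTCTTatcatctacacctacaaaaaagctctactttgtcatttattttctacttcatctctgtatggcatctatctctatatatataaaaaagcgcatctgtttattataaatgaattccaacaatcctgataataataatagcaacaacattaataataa

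In the NRD1 window the coding strand held GTAG 2 times, GTAA 0 times and TCTT 2 times. A GTAG lay 31 bases into the coding region, counting its first base as 1, the only match of the 3 windows inside coding sequence. The NAB3 window held GTAA 1 time, GTAG 0 times and TCTT 3 times, and the SEN1 window held GTAG 1 time, GTAA 0 times and TCTT 2 times. On the other strand NRD1 had 5 GTAA, 2 GTAG and 1 TCTT, NAB3 had 1, 0 and 3, and SEN1 had 1, 5 and 0. No Nrd1 motif overlapped a Nab3 motif on the coding strand. Such short motifs were frequent: of 6001 protein genes with a window, 76.4% held GTAA, 54.6% GTAG and 85.3% TCTT on the coding strand. With 4 matches in all, the NRD1 window was at the median of 4 over these genes. Over the whole coding region NRD1 had 5.79 Nrd1 motifs and 4.63 TCTT per kb, against medians of 5.18 and 4.48 over all genes. NAB3 was lower, at 3.74 and 2.49 per kb, and SEN1 higher, at 6.27 and 5.97.

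Total counts ranged from 4832946 to 17022931 per library, and levels are given as CPM, counts scaled to a common library size after TMM correction. The 3 genes were counted deeply, with 753 to 5885 reads per gene and library. Counting error, the percent error of a count from read number alone, was at most 3.64%. Between replicates the fitted variation was larger, with a biological coefficient of variation of 20.9% for NRD1, 20.4% for NAB3 and 22.7% for SEN1. In 3 libraries over 20% of features had no read (15 min replicate 1, 30 min replicate 2 and control replicate 1). The strains also differed in mating-type genes, and the labels name a mating type, MATa, for Y2615 alone. The 4 alpha-specific genes of the list summed to 983 to 2413 CPM in the 6 libraries of Y3284 and to 49.2 and 52.2 CPM in the control. The 5 a-specific genes in the table, of 6 in the list, summed to 7.89 to 33.3 CPM in Y3284 and to 262 and 303 CPM in the control. In comparisons with the control, mating type and anchoring cannot be told apart.

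NRD1 rose after Nab2 was anchored (feature ST6456, chromosome XIV, 172588 to 174315, coding sequence without an intron). The replicates at 0 min had 142 and 107 CPM, those at 15 min had 341 and 335 CPM, and those at 30 min had 484 and 519.6 CPM. The control libraries had 125 and 163 CPM. Every anchored library lay above every unanchored one, as in 5.15% of the tested features, and the replicates at 15 min differed by less than those of any other group. From the highest, the order of the group means was 30 min, 15 min, control and 0 min, and the ranges of the last pair overlapped.

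NAB3 was lower in the anchored libraries (feature ST7023, chromosome XVI, 185317 to 187725, coding sequence without an intron). The libraries at 0 min had 350.3 and 354 CPM, those at 15 min 194 and 170.1 CPM, those at 30 min 210.2 and 279 CPM, and the control libraries 375 and 386 CPM. All 4 anchored libraries lay below all 4 unanchored ones, as in 8.89% of the tested features. The lowest values were those at 15 min, and the values at 30 min lay between those at 15 min and 0 min, with the wider gap between replicates.

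SEN1 moved least (feature ST2398, chromosome XII, 993434 to 1000129, coding sequence without an intron). The libraries at 0 min had 159.7 and 169 CPM, those at 15 min 124 and 109.6 CPM, those at 30 min 111 and 146 CPM, and the control libraries 165 and 129.7 CPM. The anchored libraries lay below both 0 min libraries, but the range at 30 min overlapped that of the control.

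**Figure D1:**
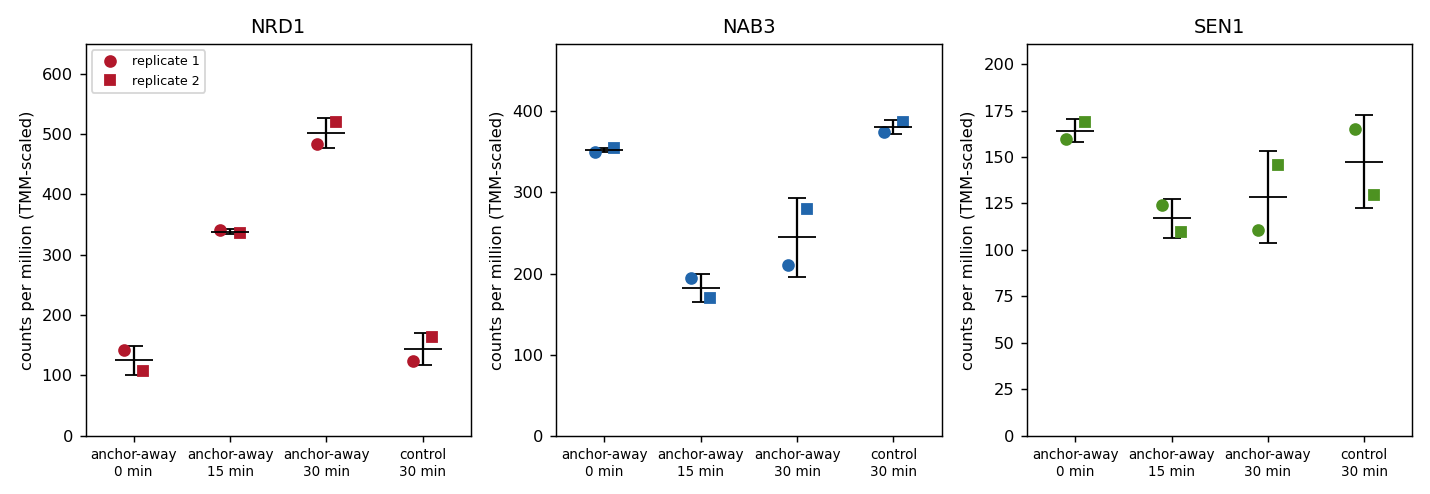
TMM-scaled CPM (y axis, from 0) of NRD1, NAB3 and SEN1 in the 8 libraries, by group. Circles are replicate 1, squares replicate 2, and bars show the mean and SD of 2 replicates. NRD1 is high in the 4 anchored libraries, at 335 to 519.6 CPM, NAB3 is low in the same libraries, at 170.1 to 279 CPM, and the SEN1 ranges of 30 min and control overlap.

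How early the 3 mRNAs changed is read from 15 min over 0 min, for which the control strain has no matching library. NRD1 averaged 338 ± 4.14 CPM at 15 min and 125 ± 24.5 CPM at 0 min (mean ± SD, n = 2 each). This was a 2.71-fold rise, with a 95% interval of 1.86 to 3.96 (edgeR adjusted p = 0.0276). NAB3 averaged 182 ± 17.0 CPM at 15 min and 352 ± 2.96 CPM at 0 min, a log2 fold change of -0.95 ± 0.25 (SE). It did not pass the adjustment over all features (edgeR adjusted p = 0.185). SEN1 averaged 117 ± 10.3 CPM at 15 min and 164 ± 6.34 CPM at 0 min (log2 fold change -0.49 ± 0.28, edgeR adjusted p = 0.870). Thus 1 of 3 genes passed, where 0.162% of 6189 tested features did. The NRD1 call at 15 min was lost without 15 min replicate 1 (edgeR adjusted p = 0.350), without 15 min replicate 2 (0.0736) and without 0 min replicate 2 (0.0816). Its log2 fold change was then 1.45, 1.46 and 1.24, against 1.44 with all libraries. It was also lost without the 3 libraries with over 20% of features at 0 (1.42), with the 4 libraries of these groups alone (1.45, edgeR adjusted p = 0.0516) and when libraries were scaled on mitochondrial (0.97) or snoRNA features (0.62), where NAB3 had -1.43 and -1.80 and, with the snoRNA scaling, passed.

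Setting 30 min against 0 min follows the same strain further, with the same 0 min libraries. NRD1 averaged 502 ± 25.0 CPM at 30 min, against 125 ± 24.5 CPM at 0 min. The rise was 4.02-fold, with a 95% interval of 2.74 to 5.91 (edgeR adjusted p = 0.000884), the 4th smallest p of all tested features. By size, the log2 fold change of NRD1 lay above that of 95.2% of tested features. NAB3 averaged 245 ± 48.8 CPM at 30 min and 352 ± 2.96 CPM at 0 min. Its log2 fold change was -0.53 ± 0.25 (SE), which did not pass (edgeR adjusted p = 0.328). SEN1 averaged 128 ± 24.7 CPM at 30 min and 164 ± 6.34 CPM at 0 min (log2 fold change -0.36 ± 0.28, edgeR adjusted p = 0.682). Of the 3 genes 1 passed, against 2.75% of tested features. Scaling on mitochondrial features ended the NRD1 call (log2 fold change 1.55, edgeR adjusted p = 0.135), as did fitting the 4 libraries of these groups alone (2.10, edgeR adjusted p = 0.0582).

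The comparison of 30 min with the control matches the time and dose of rapamycin. The strains also differ in mating-type genes, so anchoring and mating type cannot be told apart in it. NRD1 averaged 502 ± 25.0 CPM at 30 min and 144 ± 27.1 CPM in the control. It was 3.49-fold higher at 30 min, with a 95% interval of 2.38 to 5.12 (edgeR adjusted p = 0.000774). NAB3 averaged 245 ± 48.8 CPM at 30 min and 381 ± 8.22 CPM in the control. The difference did not pass (log2 fold change -0.64 ± 0.25, edgeR adjusted p = 0.143). SEN1 averaged 128 ± 24.7 CPM at 30 min and 147 ± 25.1 CPM in the control (log2 fold change -0.20 ± 0.28, edgeR adjusted p = 0.741). Here too 1 of 3 genes passed, against 6.08% of tested features, and scaling on mitochondrial features ended the NRD1 call (1.44, edgeR adjusted p = 0.134).

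Between the later and the earlier time, and between the unanchored groups, none of the 3 genes passed. For 30 min over 15 min the log2 fold change was 0.57 ± 0.25 (SE) for NRD1, 0.42 ± 0.25 for NAB3 and 0.13 ± 0.28 for SEN1, and the edgeR adjusted p was 0.426, 0.590 and 0.940. Before adjustment NRD1 alone passed 0.05, and after adjustment DESeq2 and limma-voom also called 0 of 3. The share of tested features called in this comparison was 0.436%. For the control over 0 min the log2 fold changes were 0.21 ± 0.25 for NRD1, 0.11 ± 0.25 for NAB3 and -0.16 ± 0.28 for SEN1 (edgeR adjusted p = 1.00 for each). Here 0 of 3 passed by edgeR, DESeq2 or limma-voom, also at an unadjusted p under 0.05, and 0.0808% of features were called. The 95% interval for NRD1 ran from 0.795-fold to 1.67-fold.

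With all libraries in 1 contrast, the mean of the 2 anchored groups was set against the mean of the 2 unanchored groups. NRD1 had a log2 fold change of 1.62 ± 0.18 (SE), that is 3.08-fold with a 95% interval of 2.35 to 4.03. Its p was the smallest of all tested features (edgeR adjusted p = 0.000284). By size, its log2 fold change lay above that of 90.9% of tested features. NAB3 fell by 0.79 ± 0.18 on the log2 scale, a change of -42.4% (edgeR adjusted p = 0.0107). The NAB3 call was lost without 15 min replicate 1 (log2 fold change -0.80, edgeR adjusted p = 0.0564) and without 15 min replicate 2 (-0.71, 0.0780). SEN1 did not pass (log2 fold change -0.35 ± 0.20, edgeR adjusted p = 0.346), with a 95% interval from 0.589-fold to 1.05-fold. So 2 of 3 genes passed, 1 in each direction, against 6.92% of tested features, of which 1.87% were higher and 5.04% lower. This contrast shares its libraries with all comparisons above and is no separate evidence.

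**Figure D2:**
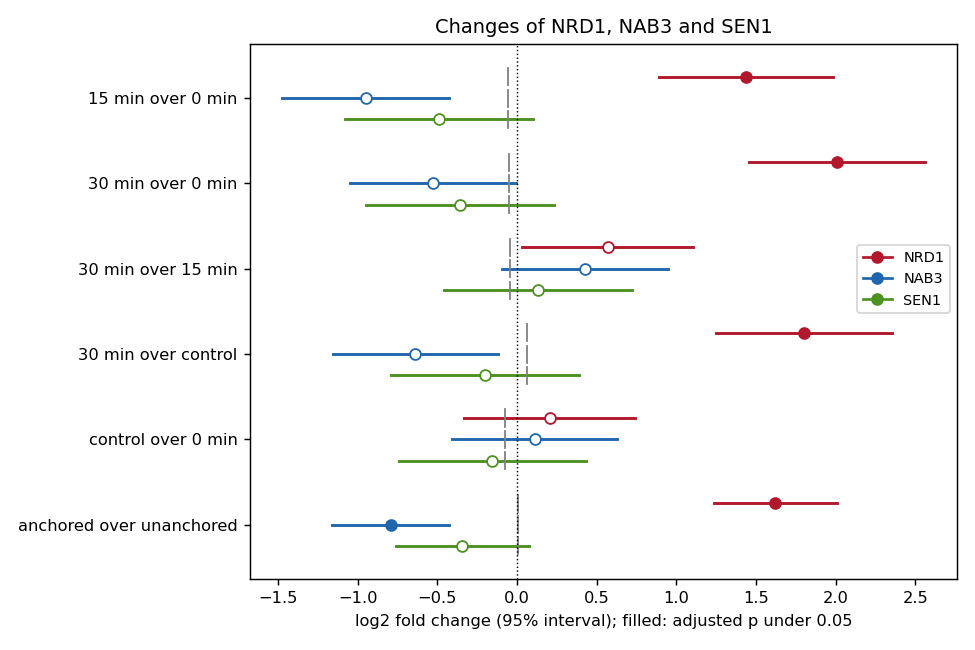
Log2 fold changes (x axis) of NRD1, NAB3 and SEN1 in 6 comparisons, with 95% intervals from edgeR. Filled points passed an adjusted p of 0.05, and grey ticks mark the median of all tested features. NRD1 passed in 4 comparisons, with values from 1.44 to 2.01, and NAB3 in the anchored over unanchored contrast, at -0.79.

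Because no fission yeast spike-in feature was in the table, a change in total RNA per cell cannot be read from these values. Ratios of genes within a library do not depend on how libraries are scaled, and were therefore tested as well. The ratio of NRD1 to NAB3 counts was 1.76 and 1.97 at 15 min and 2.30 and 1.86 at 30 min. In the unanchored libraries it was 0.406 and 0.303 at 0 min, and the control had 0.333 and 0.422. Every anchored library thus had more NRD1 than NAB3 reads and every unanchored one fewer. The mean log2 ratio was 0.97 ± 0.17 in anchored and -1.46 ± 0.23 in unanchored libraries (SD, n = 4 each). This was a 5.42-fold difference (2-sided exact permutation p = 0.0286). NRD1 and NAB3 CPM had each separated the same 8 libraries above, in opposite directions, so this p was fixed and is no separate evidence.

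The ratio of NRD1 to SEN1 reads also separated the libraries. Its mean log2 value was 1.76 ± 0.29 in anchored and -0.22 ± 0.42 in unanchored libraries (SD, n = 4 each), a 3.95-fold difference (2-sided exact permutation p = 0.0286). NRD1 had at least 335 CPM in anchored and at most 163 CPM in unanchored libraries. SEN1 varied by less, from 109.6 to 169 CPM over all libraries. The p for NRD1 to SEN1 was therefore also fixed and is no separate evidence. The ratio of NAB3 to SEN1 moved least and in the other direction. Its mean log2 value was 0.78 ± 0.17 in anchored and 1.24 ± 0.23 in unanchored libraries, a difference of -0.46 (2-sided exact permutation p = 0.0286, n = 4 each). With 70 splits this is the smallest p the test can give, and the Benjamini-Hochberg value over the 3 ratios was 0.0286 for each. The 3 ratios share their counts, so they are not independent of each other.

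**Figure D3:**
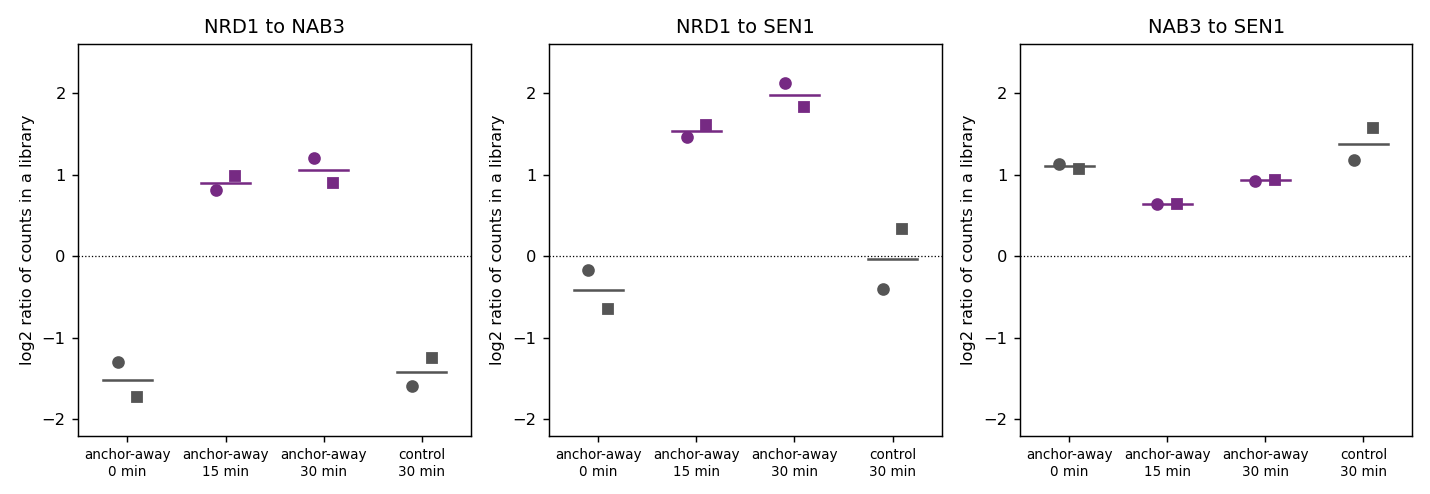
Log2 ratio of the counts of a pair of genes within each library (y axis), by group, for NRD1 to NAB3, NRD1 to SEN1 and NAB3 to SEN1. Circles are replicate 1, squares replicate 2, lines group means, and anchored libraries are purple. For NRD1 to NAB3 the anchored libraries lie between 0.81 and 1.204 and the unanchored ones between -1.72 and -1.25.

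To set different genes side by side, levels were divided by coding length, on a scale of CPM per kb. The sources used here do not give the counting rule, so comparisons between genes on this scale are approximate. NRD1 had 72.2 ± 14.2, NAB3 146 ± 1.23 and SEN1 24.5 ± 0.947 CPM per kb at 0 min (mean ± SD, n = 2). At 15 min these were 196 ± 2.39 for NRD1, 75.6 ± 7.06 for NAB3 and 17.5 ± 1.54 for SEN1. At 30 min NRD1 had 290.5 ± 14.5, NAB3 102 ± 20.3 and SEN1 19.2 ± 3.69 CPM per kb. The control had 83.2 ± 15.7 of NRD1, 158 ± 3.41 of NAB3 and 22.01 ± 3.74 of SEN1. Per length, NRD1 was 2.45 to 3.21 times NAB3 in the anchored libraries and 0.422 to 0.588 times NAB3 in the unanchored ones. SEN1 was the lowest of the 3 per length in all 8 libraries, with NRD1 at 10.6 to 16.9 times SEN1 in the anchored libraries and 2.47 to 4.87 times in the unanchored ones.

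Over the 8 libraries the log2 CPM of NAB3 and SEN1 had a Pearson r of 0.82, against -0.77 for NRD1 and NAB3 and -0.72 for NRD1 and SEN1. These describe 8 libraries that fall into anchored and unanchored groups and share their scaling. The 5 features most like NRD1 among 4975 with a mean of at least 50 counts were DUR12 (r = 0.98), CTA1 (0.98), SDS23 (0.97), LYS1 (0.96) and HRP1 (0.96). DUR12 encodes the urea-degrading enzyme, CTA1 the peroxisomal catalase, LYS1 an enzyme of lysine synthesis and HRP1 a subunit of an mRNA cleavage factor. In the anchored over unanchored contrast their log2 fold changes ranged from 0.79 for DUR12 to 2.39 for CTA1, and that of NRD1 was 1.62. The alike features were picked on the same 8 libraries, so their changes in this contrast are no separate evidence.

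Most like NAB3 were HHT1 (r = 0.98), NDC1 (0.98), RFC1 (0.98), YET3 (0.97) and XDJ1 (0.96). HHT1 encodes histone H3, NDC1 a membrane protein of the nuclear pore and RFC1 the large subunit of the clamp loader of DNA replication. Their log2 fold changes in the same contrast were between -0.70 for YET3 and -0.87 for RFC1. RFC1 (edgeR adjusted p = 0.0528) and XDJ1 (0.208) did not pass, and these features too were picked on the same libraries. Most like SEN1 were RCN1, the composite feature PUN1/YLR415C, RRP45, DUS4 and ECM1, with r from 0.93 to 0.94. RRP45 encodes a core subunit of the exosome and DUS4 a dihydrouridine synthase of tRNA.

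The complex works with factors that bind or modify the polymerase tail, here 17 genes of the cleavage and polyadenylation factor, the Paf1 complex, tail kinases and phosphatases, and the methyltransferase SET1. All 17 were tested. In the anchored over unanchored contrast 1 of 17 fell and none rose by edgeR, close to the 5.04% lower and 1.87% higher of all tested features (3 were higher at an unadjusted p under 0.05, and DESeq2 and limma-voom each called 2 rises). For 15 min over 0 min none passed by any of these tools, also before adjustment. In the anchored over unanchored contrast their median log2 fold change was 0.01, against 0.00 over all tested features. The fall was in ESS1, the prolyl isomerase that acts on the polymerase tail. ESS1 averaged 169 ± 64.3 CPM at 0 min, 138 ± 25.7 CPM at 15 min and 48.3 ± 13.6 CPM at 30 min, and control libraries had 214 ± 24.9 CPM (mean ± SD, n = 2). For 30 min over 0 min ESS1 fell, with a log2 value of -1.80 ± 0.33 (SE, edgeR adjusted p = 0.00790), and over the control with -2.15 ± 0.33 (edgeR adjusted p = 0.00113). CTR9, of the Paf1 complex, was higher at 30 min than in the control, at 121 ± 0.964 and 49.7 ± 5.43 CPM (log2 fold change 1.28 ± 0.36, edgeR adjusted p = 0.0417). It averaged 72.8 ± 30.3 CPM at 0 min, and 30 min over 0 min did not pass (0.73 ± 0.35, edgeR adjusted p = 0.353). Nor did CTR9 pass in the anchored over unanchored contrast (0.85 ± 0.25, edgeR adjusted p = 0.0517). PCF11, a cleavage factor subunit whose tail-binding domain resembles that of Nrd1, had a log2 fold change of -0.01.

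TRAMP and the nuclear exosome, to which the complex hands its RNAs, were read through 9 genes, all of them tested. In the anchored over unanchored contrast TRF5 rose and the other 8 did not pass by edgeR, DESeq2 or limma-voom, where edgeR called 6.92% of all tested features. The median of the 9 was -0.22. TRF5, a poly(A) polymerase of TRAMP, averaged 157 ± 4.80 CPM at 30 min and 34.2 ± 1.84 CPM at 0 min (mean ± SD, n = 2 each). Its log2 fold change over all anchored libraries was 1.96 ± 0.26 (edgeR adjusted p = 0.000338). Its paralog PAP2, also known as TRF4, had a log2 fold change of 0.25 and did not pass. The helicase gene MTR4 was at 0.38 and the nuclear exonuclease gene RRP6 at -0.22, neither past the test.

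Besides NRD1, 9 mRNAs known for early termination by the complex were listed. IMD2 was not analysed here and 8 were tested. In the anchored over unanchored contrast HRP1 and CLN3 rose and none fell by edgeR and by DESeq2, where edgeR called 1.87% of all tested features higher and 5.04% lower. The median of the 8 was -0.01. HRP1 had 1145 and 1006 CPM at 15 min and 1249 and 1226 CPM at 30 min, against 409.7 and 416 CPM at 0 min and 467 and 388 CPM in control libraries. Its log2 fold change was 1.46 ± 0.17 (SE, edgeR adjusted p = 0.000284), and it also passed at 15 min and 30 min over 0 min and at 30 min over the control. CLN3, which encodes a G1 cyclin, averaged 278 ± 15.9 CPM at 15 min and 293 ± 29.1 CPM at 30 min. Its unanchored levels were 158 ± 0.164 CPM at 0 min and 168 ± 69.8 CPM in control libraries. Its log2 fold change was 0.81 ± 0.20 (edgeR adjusted p = 0.0217), and by edgeR it did not pass in any comparison of single groups. For 30 min over 0 min CLN3 passed by DESeq2 (adjusted p = 0.0224) and limma-voom (0.0496), and for 30 min over the control by DESeq2 (0.0488). URA8, a CTP synthase gene, was at -0.92, which did not pass by edgeR (adjusted p = 0.0710) and passed by limma-voom (-1.11, adjusted p = 0.00647). URA2, of pyrimidine synthesis, was at 0.03 and did not pass, but its 2 anchored groups lay on either side of the unanchored ones. It averaged 1690 ± 78.6 CPM at 15 min and 855 ± 252 CPM at 30 min. Its unanchored levels were 1164.5 ± 57.3 CPM at 0 min and 1195 ± 72.5 CPM in control libraries. For 30 min over 15 min its log2 fold change was -0.98 ± 0.26, which did not pass by edgeR (adjusted p = 0.106). In that comparison DESeq2 and limma-voom each called 1 fall and 0 rises among the 8, and edgeR called neither. At 30 min over the control edgeR called 1 rise and 0 falls, DESeq2 2 rises and 1 fall, and limma-voom 1 rise and 2 falls.

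**Figure D4:**
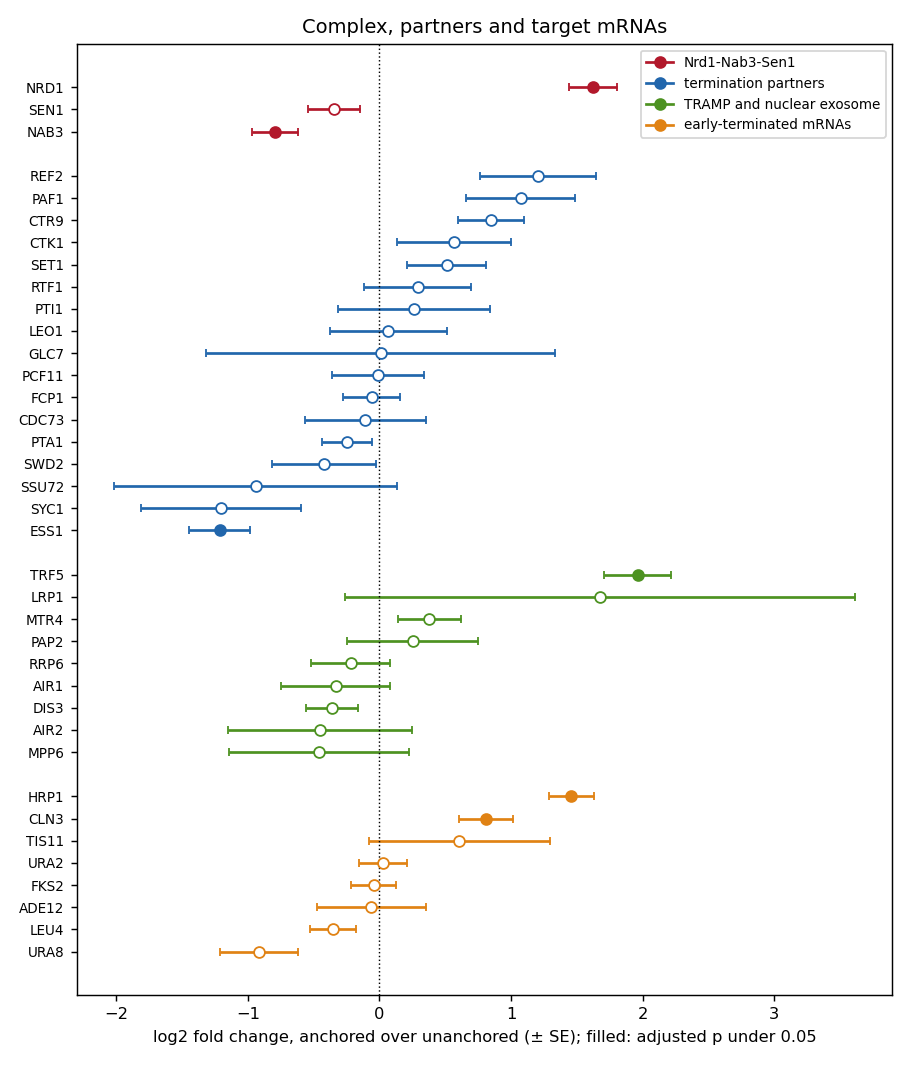
Log2 fold changes of anchored over unanchored libraries (x axis, ± SE from edgeR) for the 3 genes of the complex and 3 lists of related genes, sorted within each list. Filled points passed an adjusted p of 0.05. NRD1 at 1.62, TRF5 at 1.96, HRP1 at 1.46 and CLN3 at 0.81 lie to the right, and NAB3 at -0.79 and ESS1 at -1.22 to the left.

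The noncoding RNAs that the complex terminates were read as classes. Of 925 CUTs, 323 were tested, and reads in the anchored libraries alone could bring a CUT into the test. Of these 7 rose and none fell, against 1.87% higher and 5.04% lower of all tested features, over the unanchored libraries by edgeR (31 were higher and 0 lower at an unadjusted p under 0.05). Their share of counts was 0.119% to 0.198% in anchored and 0.0423% to 0.0596% in unanchored libraries. Most small RNA was removed before the libraries were made. Of 55 snoRNA features 27 were tested, and 1 rose and none fell (4 were higher and 0 lower at an unadjusted p under 0.05). DESeq2 and limma-voom called 24 and 10 rises among the CUTs, 2 and 2 among the snoRNA features, and 0 falls in either class. Over all features, DESeq2 called 328 rises and 375 falls, and limma-voom 220 rises and 435 falls. By edgeR, 1318 of all 6189 tested features had an unadjusted p under 0.05, in either direction. Whether rises were more frequent among CUTs or snoRNA features than among other features was not tested.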

How the data were processed

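RNA was depleted of ribosomal RNA and sequenced as strand-specific libraries with dUTP, with fission yeast RNA spiked in before library preparation, per the labels' protocols. The authors deposited whole-number read counts per annotated feature, not normalised. Build R64 is named in the submitters' processing notes, together with bedtools 2.17.0, HTSeq 0.5.3 and GSNAP. The sources used here do not give their roles or the counting rule, including its use of strand. The table held 0 spike-in features. Removing 29 exact repeats and 24 second entries left 7658 of 7711 features. Groups follow the descriptions, since 1 library of 30 min is numbered differently in its title.

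The tests were made with edgeR 4.0.16 under R 4.3.3: filterByExpr kept 6189 features, among them NRD1, NAB3 and SEN1, TMM factors scaled the libraries, and glmQLFit (robust) was fitted to all 8 libraries with 4 groups. The quasi-likelihood test was 2-sided, with Benjamini-Hochberg adjustment over all 6189 and a threshold of 0.05. The tests were run first on simulated data. P-values measure the spread between libraries that the labels call biological replicates. Ratios within a library used a pseudocount of 0.5 and a 2-sided exact permutation test. Likeness is Pearson's r of log2 CPM with a prior count of 2.

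Named are the 3 genes, HRP1 and NAB2, list members that passed a test or had the smallest p at 30 min over 0 min, the 5 most alike features of each gene, and genes within 1 kb. PCF11, PAP2, MTR4, RRP6, URA2 and URA8 fall outside the rule and were chosen after their values were seen. The genes and lists were chosen with earlier results of these data known. Coordinates and symbols come from RefSeq R64, which matched 5063 of 5118 features named as single genes. Alternatives were other scalings, no count filter, DESeq2 1.42.0, limma-voom (limma 3.58.1), fewer libraries and a replicate block.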

Additional observations from a re-analysis of the deposited data

How the results depend on the processing

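NRD1 passed in the anchored over unanchored contrast under all 19 alternatives, with log2 fold changes from 1.01 to 1.78, and SEN1 and NAB3 stayed below 0 there (-0.99 to -0.22 and -1.43 to -0.67). Scaling moved the median of all features most on snoRNA features, to -0.63 in that contrast, -0.92 for 15 min and -0.74 for 30 min over 0 min, and on mitochondrial features, to -0.39, -0.54 and -0.48, against 0.00, -0.06 and -0.05 with TMM. On mitochondrial features NRD1 lost its calls at 30 min over the control (1.44) and, against 0 min, at 15 min (0.97) and 30 min (1.55). The snoRNA share of counts was 0.399% to 0.492% in anchored and 0.251% to 0.298% in unanchored libraries. Scaling on these features therefore lowers the values of other features in the anchored libraries. On snoRNA features NRD1 at 15 min over 0 min was 0.62 and did not pass. There NAB3 passed at 30 min over the control (-1.07) and, against 0 min, at 15 min (-1.80) and 30 min (-1.23), and SEN1 passed at -1.34, -1.06 and, in the anchored over unanchored contrast, -0.99. NAB3 at 15 min over 0 min also passed by total library size (-1.12) and by the DESeq2 Wald test (-0.88). With the 2 compared groups alone, which leaves fewer residual degrees of freedom, NRD1 missed the threshold at 15 min (1.45) and 30 min (2.10) over 0 min. Without the 3 libraries with over 20% of features at 0 it missed it at 15 min (1.42). The causes of the other changes were not tested. Leaving out 1 library gave 1.24 to 1.68 for NRD1 at 15 min over 0 min and -0.92 to -0.70 for NAB3 in the anchored over unanchored contrast. For the log2 ratios it gave 2.35 to 2.51 for NRD1 to NAB3, 1.84 to 2.166 for NRD1 to SEN1 and -0.51 to -0.34 for NAB3 to SEN1, where the smallest possible p of 0.0571 cannot pass. Without the 3 libraries the ratios were 2.51, 2.03 and -0.48, with a smallest possible p of 0.2.

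The number of features called, behind the background percentages, moved by more than 1.5 times in every comparison. Over the alternatives it was 0 to 1063 for 15 min over 0 min (10 by the fit used), 0 to 1143 for 30 min over 0 min (170), and 79 to 907 for 30 min over the control (376). It was 0 to 282 for 30 min over 15 min (27), 3 to 40 for the control over 0 min (5) and 190 to 1813 for anchored over unanchored (428). Rises were 27.1% of calls in the anchored over unanchored contrast with TMM, 38.8% with RLE, 46.7% with upper-quartile and 39.1% with total-size scaling, 6.92% on mitochondrial and 2.65% on snoRNA features.

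Deviations of same-numbered libraries correlated between -0.26 and 0.11 over the 6 pairs of groups. With 2 replicates in a group this cannot settle whether same-numbered libraries were handled together. With the replicate block NRD1 had 1.62 and NAB3 -0.80 in the anchored over unanchored contrast, the calls at 15 min over 0 min came to 17, and no call on the 3 genes changed.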

Other observations

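The nearest annotated genes bear on whether reads of a neighbour could enter a member's count, and none overlaps a member in RefSeq R64. The gap between coding regions is 301 bp from NRD1 to MRPL17, 581 bp from NAB3 to COA2, 637 bp from NAB3 to MIY2, 212 bp from SEN1 to ATG23 and 701 bp from SEN1 to CRN1. COA2, an assembly factor of cytochrome c oxidase upstream of NAB3, fell in the anchored over unanchored contrast, with a log2 fold change of -1.98 ± 0.52 (SE, edgeR adjusted p = 0.0270). MRPL17, a gene of the mitochondrial ribosome beside NRD1, had 0.16 ± 0.51 in the same contrast and did not pass (edgeR adjusted p = 0.902). CRN1, which encodes coronin, had -0.52 ± 0.18 (edgeR adjusted p = 0.101) and ATG23, of autophagy, 0.46 ± 0.77 (edgeR adjusted p = 0.795). MIY2 was counted with PRM3 as 1 composite feature, at -0.84 ± 1.03.

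The mRNA of NAB2, whose protein was anchored, had a log2 fold change of 0.01 ± 0.19 in the anchored over unanchored contrast (edgeR adjusted p = 0.994). The single comparisons went both ways. The log2 fold change of NAB2 was -0.49 ± 0.28 for 15 min over 0 min, -0.14 ± 0.27 for 30 min over 0 min, 0.50 ± 0.28 for 30 min over the control and -0.65 ± 0.28 for the control over 0 min. None of these passed (edgeR adjusted p = 0.851, 0.927, 0.312 and 1.00), and the last was under 0.05 before adjustment.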
